A study of Gallus gallus with 6 samples.

Results

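Mitochondrial ribosomal protein genes are the nuclear genes whose symbols begin with MRPL or MRPS followed by a number. The RefSeq annotation of the chicken genome build GRCg7b holds 73 coding genes with such a symbol. Of these, 72 lie on chromosomes, among 17839 coding genes there, and were examined in abdominal fat. They comprise 46 genes named for the large subunit (MRPL) and 26 named for the small subunit (MRPS), and the subunits below are classes by symbol only. The remaining gene, MRPS24, is placed on an unplaced sequence, which no list covers, and was not analysed here.

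The tissue was profiled by ATAC-seq, in which the Tn5 transposase cuts accessible DNA and the cut sites are read by sequencing. The libraries came from 6 individuals of NEAUHLF, a chicken population with an FL line and an LL line, with 3 libraries per line. No treatment, age, sex or transgene is given by the labels for either line, and both lines were sampled for the same tissue. The question put to the data was whether chromatin around these genes was accessible in every bird, and whether it differed between FL and LL.

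The mitochondrial ribosome translates the few proteins that mitochondrial DNA still encodes, all of them subunits of the respiratory chain and of ATP synthase. All of its proteins are made from nuclear genes, translated in the cytosol and imported, so that the nucleus supplies a ribosome for a genome outside it. White adipocytes use mitochondria for fatty acid oxidation, for the ATP that lipogenesis consumes and for the citrate from which fatty acids are built.

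The deposited data are 1 peak list per library, so a gene is described here by whether a peak was called near it and by how that peak ranked in its own list. A gene was called open in a library when a peak overlapped the 1 kb on either side of either annotated gene end. The gene table used carries no strand, so the start and the end of transcription were not distinguished. The lists ran from 15628 peaks in LL replicate 3 to 73410 in LL replicate 1, and the narrowest peak of a list from 112 to 178 bp, so a missing peak can reflect a short list as well as closed chromatin. Read depth is not recorded in the lists. The adipocyte markers PPARG, CEBPD, FABP4 and LPL were open in all 6 libraries, and between 6 and 9 of the 9 adipocyte markers found were open per library. Of the markers of other cells, 0 to 5 of 5 endothelial and 1 to 6 of 6 fibroblast markers were open, with the highest counts in both replicates numbered 1. Myeloid markers were open at 1 to 5 of 5 and lymphocyte markers at 0 to 4 of 5. Erythroid markers were open at 0 to 3 of 3 found, and smooth muscle markers at 0 to 2 of 3. Mesothelial markers stayed at 2 of 3 in each library and skeletal muscle markers at 1 to 2 of 4. TNNT3, the only muscle marker open in all 6 libraries, has an end by the open region of MRPL23, a gene of the family examined here. The 3 neuronal markers were open at 2, 2 and 1 in FL and at 0 in each LL library. Among all coding genes 6.21% were open in at least 2 more FL libraries, and nothing is read from 3 markers. The part of this cell mixture in the results below was not tested, and in bulk tissue fewer cells of a type and less accessible DNA per cell cannot be told apart.

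Most mitochondrial ribosomal protein genes had an open end in fat. In FL replicates 1 to 3, 68, 60 and 61 of the 72 genes were open, which is 94.4%, 83.3% and 84.7%. In LL replicates 1 to 3 the numbers were 68, 53 and 52, or 94.4%, 73.6% and 72.2%. Among all coding genes the share was 69.5%, 56.6% and 54.7% in FL and 72.3%, 48.6% and 41.5% in LL. In each of the 6 libraries the mitochondrial ribosomal protein genes were thus open more often than coding genes at large, at 1.31 times the coding share in the library with the longest list and 1.74 times in the one with the shortest.

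An open end in all 6 libraries was found for 46 genes, or 63.9%, against 35.7% of all coding genes. A further 10 genes (13.9%, against 9.65%) were open in 5 libraries, which makes 56 genes open in at least 5 (77.8%, against 45.3%). Only 3 genes were open in none, which is 4.17% of the family against 22.8% of coding genes. The numbers open in exactly 4, 3, 2 and 1 libraries were 3, 4, 6 and 0, where 8.55%, 7.34%, 8.85% and 7.14% of coding genes fell.

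**Figure D1:**
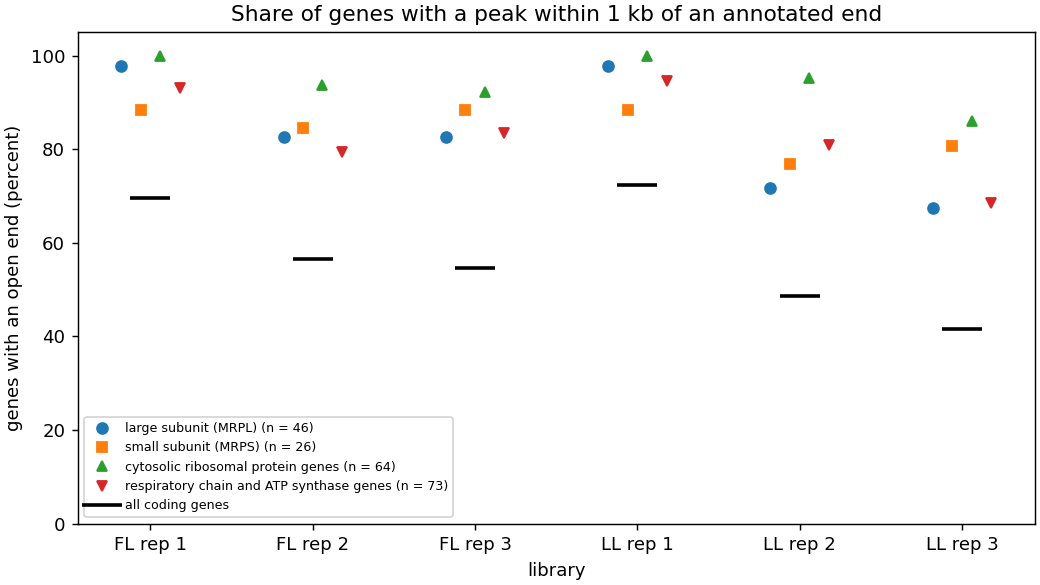
Share of genes with a peak within 1 kb of a gene end (y axis, percent) in each library (x axis), for large-subunit and small-subunit mitochondrial ribosomal protein genes, cytosolic ribosomal protein genes and genes of the respiratory chain and ATP synthase, with all coding genes as black dashes. The large-subunit points lie between 67.4% and 97.8% and the small-subunit points between 76.9% and 88.5%, above the dash in each library.

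The family's share was 87.5 ± 6.05% in FL and 80.1 ± 12.4% in LL (SD, n = 3 libraries each), and the libraries of the lines overlapped, since FL replicate 1 and LL replicate 1 had the same number of open genes. The overlap rested on LL replicate 1, as LL replicates 2 and 3 (73.6% and 72.2%) lay below each FL library. All coding genes showed the same layout, with 60.3 ± 8.06% in FL and 54.2 ± 16.1% in LL. That difference of 6.09 percentage points had a two-sided p of 0.6 in an exact permutation test, for which 0.1 is the smallest value that 3 against 3 libraries allow. It was -0.216 points without LL replicate 3, 15.2 points without LL replicate 1, and 0.811 points when peaks under 178 bp were dropped. Relative to all coding genes the family stood at 1.46 ± 0.0957 in FL and 1.52 ± 0.216 in LL (SD, n = 3).

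When each list was shortened to its 15628 strongest peaks, 60, 56 and 58 genes were open in FL and 62, 50 and 52 in LL. The coding shares at that length were 50.5%, 47.9% and 50.1% in FL and 49.3%, 41.3% and 41.5% in LL. At equal length LL replicate 1 had the most open family members and LL replicate 2 the fewest, so the lines still overlapped.

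The subunits differed in how far their share ranged. Of the large-subunit genes, 45, 38 and 38 of 46 were open in FL and 45, 33 and 31 in LL. Of the small-subunit genes, 23, 22 and 23 of 26 were open in FL and 23, 20 and 21 in LL. The large-subunit share thus spanned 67.4% to 97.8% and the small-subunit share 76.9% to 88.5%, with the large subunit ahead in both replicates numbered 1 and behind in the other 4 libraries. In all 6 libraries 27 large-subunit genes (58.7%) and 19 small-subunit genes (73.1%) were open. No test was made of this difference between the subunits. The small-subunit genes not open in the replicates numbered 1 were MRPS2, MRPS5 and MRPS26. With a window of 2 kb in place of 1 kb they were open in all 6 libraries, so the comparison depends on the window.

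The genes are short, with a median length of 3850.5 bp against 12080 bp for coding genes, and 56 of 72 (77.8%, against 55.6% of coding genes) have an end within 1 kb of an end of another gene. For 54 (75%, against 48.5%) that other gene is a coding gene. Closeness to any gene's end was not particular to the family, at 79.5% of respiratory chain and ATP synthase genes and 76.6% of cytosolic ribosomal protein genes. The family was open more often than coding genes of the same kind on both sides of either property. Among genes at or below the coding median length, 38 of 59 family members (64.4%) were open in all 6 libraries, against 27.7% of coding genes of that length. Among longer genes the numbers were 8 of 13 (61.5%) and 43.7%. Of the members that lie close to another gene's end, 33 of 56 (58.9%) were open in all 6 libraries, against 43.4% of such coding genes. Of the 16 that stand alone, 13 (81.3%) were open in all 6, against 25.9%.

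By chromosome size, 26 of 38 members on macrochromosomes (68.4%) were open in all 6 libraries, where 42.6% of coding genes were. On microchromosomes 12 of 24 (50%) were, against 29.2%. In both classes the family stood above the coding share.

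**Figure D2:**
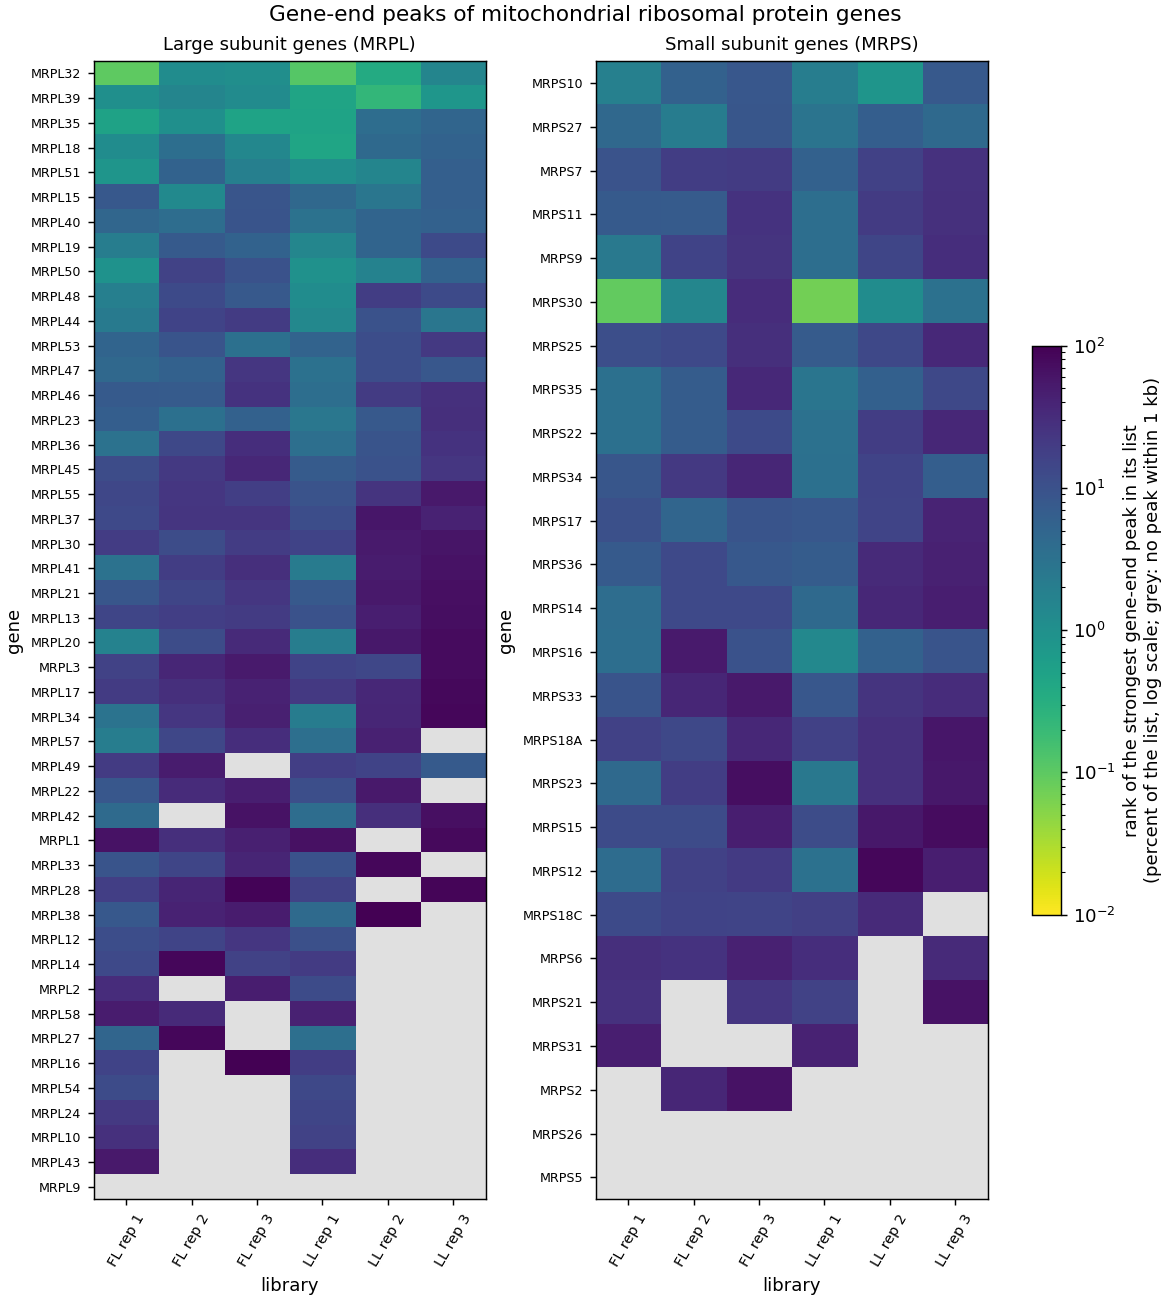
Rank of the strongest gene-end peak of each gene (rows, large subunit left and small subunit right) in each library (columns), as a percent of that library's list on a log colour scale, with grey for no peak within 1 kb. Genes are ordered by how many libraries were open and by poorest rank, from MRPL32 with ranks between 0.0982% and 1.5% to MRPL9, MRPS5 and MRPS26, which are grey throughout.

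To order the open genes, the strongest gene-end peak was ranked by its −log10 q within its list, as a percent in which low values are strong peaks, and each gene was represented by its poorest rank over the 6 libraries. The score, fold enrichment and q of a peak are the authors' values and describe that peak in its own list. The median rank of open members was 8.04%, 14.6% and 23.6% in FL and 4.90%, 17.0% and 29.5% in LL. Open coding genes had medians of 10.9%, 18.8% and 24.3% in FL and 9.87%, 27.4% and 29.6% in LL. The members' median was the stronger one in each library, narrowly so in LL replicate 3. For the poorest rank the median was 34.6% over the 46 members open in all 6 libraries and 35.0% over the 6361 such coding genes. The strong tail was longer, with 9 members (19.6%) never ranked below the top 10% of a list, against 11.5% of those coding genes.

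MRPL32, a large-subunit protein (chromosome 2, 51161880 to 51164308, GRCg7b), had the best poorest rank. Its peak ranked at 0.0982%, 1.14% and 1.07% in FL and at 0.112%, 0.360% and 1.5% in LL. The fold enrichment of that peak over local background was 13.7, 8.89 and 12.2 in FL and 14.5, 8.97 and 6.21 in LL. The peak was among the strongest of every list, and its region (51161092 to 51162199) also covers the end of PSMA2, which encodes a subunit of the proteasome core.

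MRPL39 (chromosome 1, 102595162 to 102604300), another large-subunit protein, came next. It ranked at 1.02%, 1.51% and 1.17% in FL and at 0.463%, 0.227% and 0.793% in LL. The region at its upper end (102604076 to 102605010) lies within 1 kb of no other annotated gene end, and in LL replicates 2 and 3 it was the best-ranked gene of the family.

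MRPL35 (chromosome 4, 85004491 to 85011495) ranked at 0.494%, 1.04% and 0.483% in FL and at 0.486%, 3.75% and 4.88% in LL. It was the best-ranked member in FL replicates 2 and 3. Its region (85003540 to 85004851) is shared with IMMT, which encodes the core protein of the complex that shapes mitochondrial cristae.

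The poorest ranks of the next members were 5.55% for MRPL18, 6.22% for MRPL51, 8.09% for MRPS10, 8.38% for MRPS27, 8.78% for MRPL15, 9.0% for MRPL40 and 12.6% for MRPL19. MRPL18 is a large-subunit protein related to the bacterial protein that binds 5S rRNA, and its region (chromosome 3, 45270572 to 45271817) is shared with TCP1, a subunit of the cytosolic chaperonin. MRPS27 is a small-subunit protein with pentatricopeptide repeats, a fold that binds RNA. Its region on chromosome Z (25819201 to 25820368) also covers the end of PTCD2, another gene for a pentatricopeptide protein of mitochondria. The regions of MRPL15 and MRPL19 touch no other gene end. The peak counted for MRPL51 is centred 1147 to 1239 bp from its own annotated end and lies in a region shared with VAMP1, a gene of synaptic vesicle fusion, so it enters the count by the edge of the peak. A separate region at the gene's other end (chromosome 1, 76870005 to 76870613) was present in FL replicates 1 to 3 and LL replicate 1, and by summit MRPL51 was open in those 4 libraries and in neither LL replicate 2 nor LL replicate 3.

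One further member stood out after its values were seen. MRPS30 (chromosome Z, 14717791 to 14723330), which in mammals sits in the large subunit and is counted here with the small subunit by its symbol, ranked at 0.0930%, 1.46% and 31.3% in FL and at 0.0722%, 1.12% and 3.21% in LL. Its fold enrichment was 17.5, 9.29 and 6.99 in FL and 21.6, 8.74 and 5.72 in LL. It was the best-ranked member in FL replicate 1 and LL replicate 1, and FL replicate 3 alone placed it outside the top 10%.

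At the other extreme, 5 members open in all 6 libraries had a peak far down at least 1 list. Their poorest ranks were 75.5% for MRPL20, 75.6% for MRPL3, 81.2% for MRPL17, 84.9% for MRPS12 and 85.9% for MRPL34. For 4 of them that rank was in LL replicate 3, the shortest list, and for MRPS12 it was in LL replicate 2. MRPL3 is related to the bacterial protein near the peptidyl transferase centre, and MRPS12 to the bacterial protein at the decoding site. MRPL34 (chromosome 28, 3846006 to 3847295) ranked at 3.03%, 23.1% and 43.8% in FL and at 2.07%, 37.8% and 85.9% in LL. Ranks from lists of different length cannot show whether a peak changed between libraries.

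The open stretch sat at the gene end itself. The median distance from the summit of the strongest peak to the nearer annotated end was 58, 129.5 and 69 bp in the FL libraries, and 74, 134 and 129 bp in the LL libraries. For open coding genes the FL libraries gave 131, 159 and 119 bp and the LL libraries 140, 174 and 192.5 bp, longer than the members' median in each library. On average over the libraries, 54.2% of open members had the summit in the first 200 bp outside the gene (42.3% to 66.2% by library), against 43.2% of open coding genes (35.6% to 50.8%). The members' peaks were also wider, with medians of 782.5, 451 and 335 bp for FL and 899, 559 and 492 bp for LL. Coding genes had 689.5, 400 and 304 bp for FL and 820, 485 and 474 bp for LL.

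**Figure D3:**
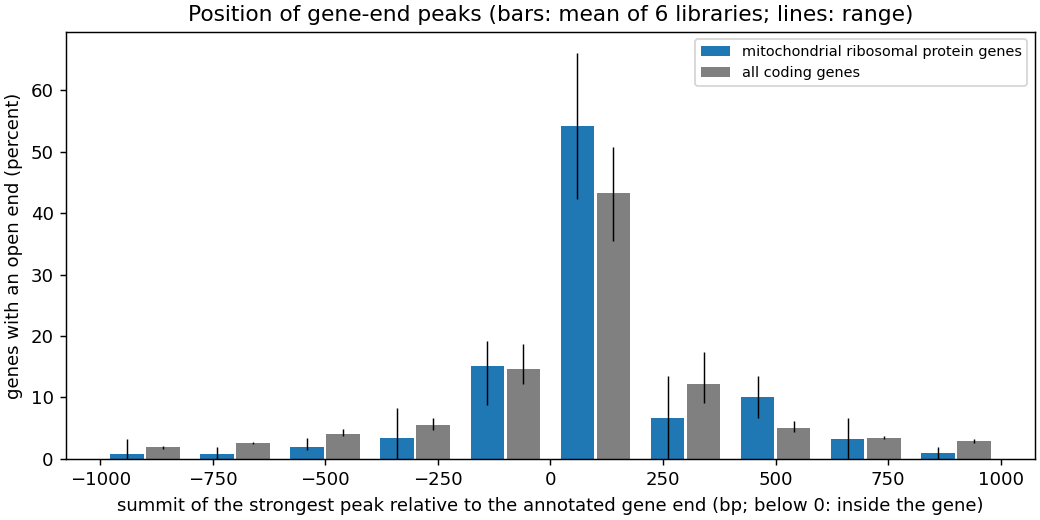
Position of the strongest peak's summit relative to the nearer annotated gene end (x axis, bp, below 0 inside the gene) as a share of genes with an open end (y axis, percent), for mitochondrial ribosomal protein genes and all coding genes, with bars for the mean and lines for the range over the 6 libraries. The bin from 0 to 200 bp outside the gene holds 54.2% of the family and 43.2% of coding genes.

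The open end was mostly the same from bird to bird, for members and for coding genes alike. Of the 6361 coding genes open in all 6 libraries, 6274 had the same end open in all 6 (35.2% of coding genes). The family's higher share, 62.5%, follows its higher share of genes open in all 6 libraries. Of the 46 members open in all 6 libraries, 45 had the same end open in all 6. The exception, MRPL55, had a region at its lower end that was missing in LL replicate 3 and one at its upper end that was missing in FL replicate 2. For 40 of the 46 the strongest peak was at the same end in each library, and for 26 the summits of the 6 libraries lay within 200 bp of each other. Coding genes were not counted in these ways. Both ends were open in all 6 libraries for 4 members (5.56%, against 1.97% of coding genes). In MRPL41, MRPL50 and MRPS12 a single region near a short gene accounts for both ends. MRPS17, related to a bacterial protein that binds small-subunit rRNA early in assembly, had separate regions at its ends (chromosome 19, 5336692 to 5337322 and 5339962 to 5341044), and NIPSNAP2, also a gene for a mitochondrial protein, has its end by the latter.

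After merging peaks that overlap between libraries, the members' ends held 91 regions. Of these, 46 (50.5%) were present in all 6 libraries, against 31.5% of the 15775 regions at coding gene ends. Regions seen in 1 library numbered 7 (7.69%, against 22%). Most were shared with a neighbour, since 68 of the 91 regions, and 33 of the 46 present in all libraries, also lay within 1 kb of an end of another gene. A peak in such a region cannot be assigned to the member or to its neighbour. The share of shared regions was not computed for coding gene ends at large.

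In 5 regions open in all 6 libraries the other gene end belonged to another member or to a gene of the mitochondrial lists used here. How often this holds for other coding genes was not counted. The lists (respiratory chain, tRNA synthetases and the like) leave out neighbours such as IMMT, PTCD2, NIPSNAP2 and MFF, the last by the region of MRPL44. MRPL46 and MRPS11, a large-subunit and a small-subunit gene, lie 37 bp apart on chromosome 10 and share a region of 848 bp (13187572 to 13188419), the only one shared by members of the family. Its rank was 7.31%, 7.12% and 26.3% in FL and 3.64%, 20.2% and 28.0% in LL, and its fold enrichment was 7.37, 6.23 and 7.21 in FL and 12.4, 4.80 and 3.54 in LL. The lines overlapped in both measures. MRPL36 shares its region (chromosome 2, 85599155 to 85600345) with NDUFS6, and MRPL47 (chromosome 9, 17133161 to 17133861) with NDUFB5, both genes of respiratory complex I. MRPS16 shares its region (chromosome 21, 198628 to 199606) with SDHB, the iron-sulfur subunit of complex II. MRPS12 shares its region with SARS2, the mitochondrial seryl-tRNA synthetase.

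The widest end regions belonged to MRPS23 (2038 bp, chromosome 19, 9236831 to 9238868) and MRPL37 (1927 bp, chromosome 8, 24848645 to 24850571). They were followed by MRPS12 (1492 bp), MRPL49 (1487 bp) and MRPS7 (1465 bp). All but that of MRPL49, which was missing in FL replicate 3, were present in all 6 libraries. A merged region grows with every library that contributes to it, so its width is that of the union of the lists.

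MRPL9, MRPS5 and MRPS26 had no peak within 1 kb of an end in any library. For MRPL9, a large-subunit protein (chromosome 25, 2920967 to 2924166), the nearest peak was 32918, 10712 and 39441 bp away in FL, and in LL it was 39947, 42588 and 42594 bp away. It also remained without an open end under each of the 7 other peak and window settings tried with all 6 libraries. Its neighbour TDRKH, a gene of the germline piRNA pathway, has an end 30 bp from it, and that end lacked a peak as well. Farther out, within 50 kb of MRPL9, the lists held 9 regions away from any gene end, 3 of them present in all 6 libraries.

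MRPS5 and MRPS26 were different. For MRPS5, related to a bacterial protein of the decoding region (chromosome 3, 15798343 to 15843409), the nearest peak was 1088, 1253 and 1130 bp from the upper end in FL, with 1088, 1238 and 1249 bp for LL. It lies inside the gene in a region present in all 6 libraries (15841405 to 15842321), with a fold enrichment of 10.1, 8.35 and 7.82 in FL and 12.4, 4.13 and 4.28 in LL. The gene therefore missed the 1 kb limit by a short distance in each library.

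For MRPS26 (chromosome 4, 88234875 to 88240252) the nearest peak was 1851, 1944 and 1900 bp from an end in FL, with 1788, 1949 and 1974 bp for LL. It too lies inside the annotated gene and in all 6 libraries (88236663 to 88237356), with a fold enrichment of 10.7, 3.62 and 6.05 in FL and 15.8, 4.79 and 3.48 in LL. The neighbouring end 81 bp away is that of OXT, the oxytocin gene. With a window of 2 kb both MRPS5 and MRPS26 were open in all 6 libraries, as was MRPS2.

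Regions wholly inside a member, more than 1 kb from its ends and present in all 6 libraries, were also found in MRPL1, MRPS2, MRPS18C and MRPS31. That of MRPS18C (chromosome 4, 46043204 to 46043929) had a fold enrichment of 15.8, 7.37 and 9.99 in FL and 19.4, 5.12 and 4.73 in LL, above the 5.37, 4.68 and 8.19 in FL and the 6.19 and 3.96 in LL replicates 1 and 2 of the peak at the gene's end. In LL replicate 3 the end had no peak and the inner region did. The inner region also lies by an end of HELQ, so its peak cannot be assigned to MRPS18C alone. MRPS31 was counted as open in FL replicate 1 and LL replicate 1 alone, while its inner region (chromosome 1, 170409963 to 170410696) was present in all 6.

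**Figure D4:**
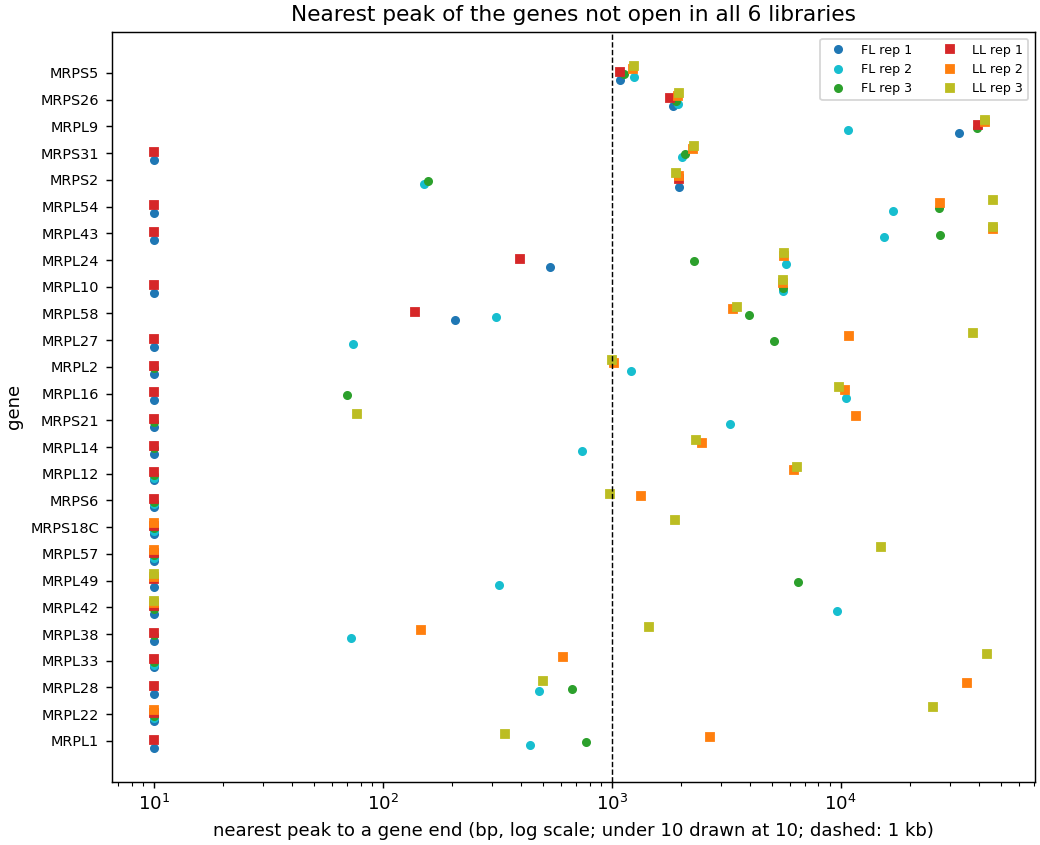
Distance from a gene end to the nearest peak (x axis, bp, log scale, distances under 10 bp drawn at 10, dashed line at 1 kb) for each gene not open in all 6 libraries (y axis), with a point per library. MRPL9 lies between 10712 and 42594 bp, whereas the points of MRPS5 lie between 1088 and 1253 bp, just beyond the line.

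Of the 23 members open in 1 to 5 libraries, 22 (95.7%) were open in both FL replicate 1 and LL replicate 1, the longest lists, against 76.0% of the 7408 coding genes open in 1 to 5 libraries. MRPL10, MRPL24, MRPL43, MRPL54 and MRPS31 were open in those libraries and in no other, which is 6.94% of the family against 6.87% of coding genes. MRPL10 anchors the stalk of the large subunit that recruits translation factors. MRPL58, a peptidyl-tRNA hydrolase that in mammals frees stalled ribosomes, was open in FL replicates 1 and 2 and LL replicate 1. The other libraries did not follow their list lengths gene by gene: MRPL42 was open in LL replicate 3, the shortest list, and not in FL replicate 2, and MRPL49 was open there and not in FL replicate 3. LL replicate 2 lacked a peak at 19 members and LL replicate 3 at 20, and 15 of these were the same genes, among them the 3 open in no library. Only 48.6% and 41.5% of all coding genes were open in these libraries. The overlap was not counted over coding genes, so nothing is read from it about the family.

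No member was open in all 3 libraries of one line and in none of the other. Among coding genes 0.275% were open throughout FL and nowhere in LL, and 0.0448% the other way round. At the level of regions, none of the members' 91 end regions was present in all libraries of one line and absent from the other, against 0.330% (FL) and 0.0761% (LL) of regions at coding gene ends. A difference of 2 or more libraries in favour of FL was found for 3 members (4.17%, against 6.21% of coding genes), and in favour of LL for none (against 1.08%). On the FL side the count lay on either side of the background by setting, with 5 of 72 members against 6.17% of coding genes at a −log10 q of at least 5 and 1 of 72 against 3.30% when peaks under 178 bp were dropped. These shares are near the background and are not read as a result about the family. The 3 genes were MRPL12, MRPL14 and MRPS2.

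MRPL12 (chromosome 18, 10524251 to 10527596) is the stalk protein that binds to translation factors and, in mammals, also to the mitochondrial RNA polymerase. Its end peak had a fold enrichment of 4.96, 4.19 and 6.12 in FL and 6.62 in LL replicate 1. In LL replicates 2 and 3 the nearest peak was 6247 and 6434 bp away. The gene was thus open in FL replicates 1 to 3 and in LL replicate 1, and the difference of 2 libraries was found under each of the 7 other peak and window settings. Its region (10523866 to 10524272) is shared with HGS, a gene of endosomal sorting.

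MRPL14 (chromosome 3, 30062286 to 30071094) is a large-subunit protein at the interface between the subunits. The strongest end peak of each library had a fold enrichment of 4.40, 2.5 and 7.27 in FL and 4.54 in LL replicate 1. In LL replicates 2 and 3 the nearest peak was 2491 and 2340 bp away. The peaks of FL replicates 1 and 3 and LL replicate 1 formed a single region (30061850 to 30062336). The peak of FL replicate 2 did not overlap it and formed a region of its own (30061405 to 30061547). That peak was 143 bp wide and stood at 86.0% of its list, and without it, as under a limit of 5 on −log10 q, the difference of 2 libraries was gone.

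MRPS2 (chromosome 17, 8326127 to 8332576), related to a bacterial small-subunit protein, had an end peak in FL replicate 2 with a width of 159 bp and in FL replicate 3 with a width of 143 bp. Their fold enrichment was 3.45 and 3.74. The other 4 libraries had none there. LL replicates 1 to 3 listed no peak narrower than 166 bp anywhere, whereas FL replicate 1, also without a peak there, listed peaks down to 146 bp. The part of peak width in the missing peaks was not tested. A wider region inside the gene (8328034 to 8328938), 1907 bp from the lower end, was present in all 6 libraries, with a fold enrichment of 7.78, 4.44 and 7.38 in FL and 10.7, 5.52 and 5.74 in LL. That region also lies by an end of another gene, LOC112530004. Among coding genes 0.185% were open in FL replicates 2 and 3 and no other library.

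Distal regions were counted where no peak lay within 1 kb of any gene end and the region was within 50 kb of an end of the gene. A member had a median of 7.5 such regions over all libraries and a coding gene 9. By library the mean number per member was 4.97, 1.33 and 1.43 in FL and 7.29, 1.61 and 0.903 in LL. For coding genes it was 5.51, 1.93 and 1.57 in FL and 7.90, 1.84 and 1.13 in LL, higher in each library. Per 100 kb of the window searched, however, the members' density relative to all coding genes was 1.06, 0.823 and 1.08 in FL and 1.08, 1.03 and 0.919 in LL, on both sides of 1. The line means were 0.987 ± 0.143 in FL and 1.01 ± 0.0840 in LL (SD, n = 3), a difference smaller than either spread.

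The mean densities of the subunits differed in each library. The density ratio of the large-subunit genes was 1.16, 0.957 and 1.24 in FL and 1.12, 1.13 and 1.0 in LL. That of the small-subunit genes was 0.892, 0.586 and 0.791 in FL and 1.01, 0.861 and 0.768 in LL, lower than the large-subunit value in all 6 libraries. The median densities per 100 kb lay closer together. They were 4.69, 0.981 and 0.990 for the large subunit in FL, and 5.92, 0.979 and 0.921 in LL. For the small subunit they were 3.79, 0.915 and 0.939 in FL, and 5.91, 0.958 and 0.815 in LL. Outside the replicates numbered 1 the median member had 1 distal region per library, so the medians there say little about the contrast in means. The libraries share the same genes and windows, so the values are 6 readings of one set of loci, and no test was made.

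**Figure D5:**
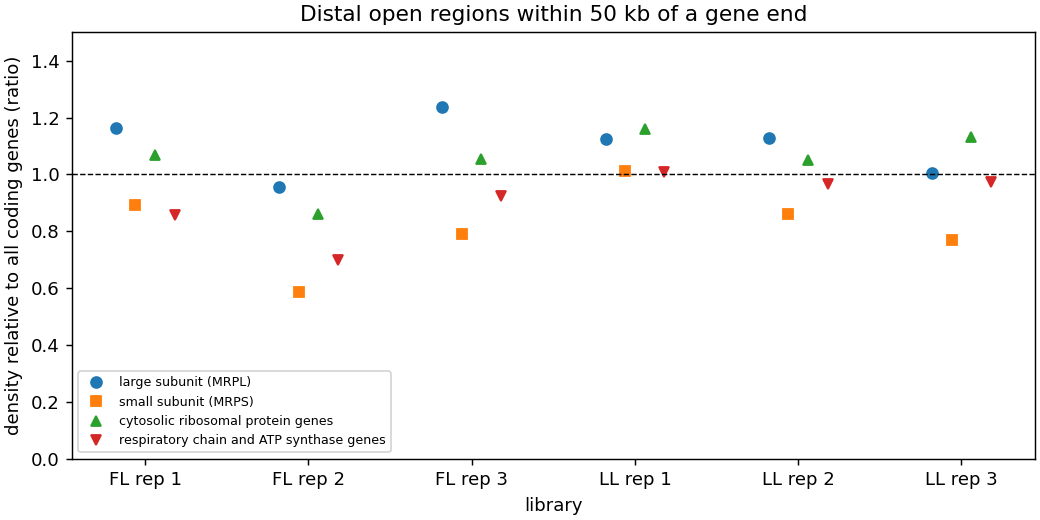
Density of distal regions within 50 kb of a gene relative to all coding genes (y axis, ratio, dashed line at 1) in each library (x axis), with a point for each subunit, for cytosolic ribosomal protein genes and for genes of the respiratory chain and ATP synthase. Large-subunit points lie between 0.957 and 1.24 and small-subunit points between 0.586 and 1.01.

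Together the members had 597 distinct distal regions around them. In all 6 libraries 22 were present (3.69%, against 2.91% of the 81476 distal regions of the genome), and 251 were seen in 1 library (42.0%, against 52.5%). A member was the nearest coding gene for 133 of the 597 (22.3%). Of the 22 present throughout, 4 were nearest to a member, namely MRPS5, MRPS26, MRPS31 and MRPS35. The region inside MRPL1 that was present in all 6 libraries was not among these, and it lies closer to an end of CNOT6L than to either end of MRPL1. None of the 597 was present throughout FL and nowhere in LL (0.183% of distal regions genome-wide), and 1 was present throughout LL and nowhere in FL (0.0871%). That region (chromosome 23, 4411165 to 4411914) lies inside STK40, a kinase-like gene, and 23601 bp from MRPS15.

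MRPL33 had the most distal regions, 21 over all libraries, followed by MRPL20 with 18, MRPL53 with 17, and MRPL23 and MRPS18A with 16 each. Around MRPL33 the numbers were 13, 4 and 2 in FL and 16, 2 and 0 in LL, so the long lists supplied most of them. MRPL53 (chromosome 2, 120948170 to 120952237) kept more in the short lists, with 13, 2 and 3 in FL and 17, 6 and 4 in LL. Its 1 region present in all 6 libraries (121000927 to 121002304) lies 48690 bp from MRPL53 and 24350 bp from its nearest coding gene, FABP9, which is named for the fatty acid binding proteins. MRPL16 alone had none, and 23 other genes have an end within 50 kb of it.

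Genes for the partners of these proteins gave the following counts. A difference of 2 or more libraries between the lines, named below gene by gene, was found for 6.21% of all coding genes in favour of FL and for 1.08% in favour of LL, and nothing is read from the single genes. Of subunits of the mitochondrial ribosome with other names, DAP3, PTCD3 and AURKAIP1 were open in all 6 libraries, GADD45GIP1 in 4 and CHCHD1 in none. PTCD3, a small-subunit protein with pentatricopeptide repeats, never ranked below 3.08%. Of 22 genes found for ribosome assembly and rRNA modification, 14 were open in all 6, with RBFA, a small-subunit assembly factor, at a poorest rank of 5.88% and TFB1M, the methyltransferase of the small-subunit rRNA, at 9.87%. In that list NSUN4 and MRM2, both rRNA methyltransferases, were open in 3 FL libraries and 1 LL library, and the GTPase gene MTG1 in 1 FL and 3 LL libraries.

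Of 9 translation factor genes found of 15 listed, 8 were open in all 6 libraries, and GFM1, an elongation factor, missed LL replicate 3. The release factor gene MTRF1L had a poorest rank of 2.44% and GUF1, a GTPase of elongation, one of 5.47%. Of 15 mitochondrial tRNA synthetase genes found, 13 were open in all 6 libraries, MARS2 in 3 FL libraries and 1 LL library, and TARS2 in LL replicate 2 alone. The translation factors and the synthetases were thus open in all libraries at 88.9% and 86.7%, above the 63.9% of the ribosomal proteins themselves, in lists of few genes.

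Of 11 genes found for transcription of mitochondrial DNA and handling of its RNA, 7 were open in all 6 libraries. LRPPRC, which stabilises mitochondrial mRNA, had a poorest rank of 5.77% and TFAM, which packages and transcribes mitochondrial DNA, one of 14.3%. POLRMT, the gene of the mitochondrial RNA polymerase, and MTPAP, that of the poly(A) polymerase, were open in 3 FL libraries and 1 LL library. Among 10 regulators found, 5 were open throughout, and NRF1, an activator of nuclear genes for mitochondrial proteins, never ranked below 6.61%. GABPB1, a subunit of the activator GABP, was open in 3 FL libraries and 1 LL library. Of the coactivators, PPARGC1A was open in FL replicate 1 alone, and PPARGC1B and PPRC1 in LL replicate 1 alone.

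Larger machines gave a scale for these counts. Of 73 genes for the respiratory chain and ATP synthase, 45 (61.6%) were open in all 6 libraries, with 68.5% to 94.5% open per library. Of 64 cytosolic ribosomal protein genes, 52 (81.3%) were, with 85.9% to 100% open per library. A difference of 2 or more libraries was found for 4 respiratory chain genes, all in favour of FL, and for 2 cytosolic ribosomal protein genes, 1 in each direction. With 6.21% of coding genes differing in favour of FL, the 4 of 73 respiratory chain genes are near the background.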

How the data were processed

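ATAC-seq peaks of 6 abdominal fat libraries, 3 of the FL line and 3 of the LL line, were analysed as deposited. Peak lists in the build GRCg7b were prepared with MACS3 3.0.0b1 among the tools, next to BWA, bedtools 2.30.0, SAMtools, Trim Galore and FastQC, per the submitters' processing notes. The peak caller's settings are not stated there. Each list was made by the authors for 1 library, with no pooling stated. The authors' columns give a score, a fold enrichment, a −log10 p-value and a −log10 q-value per peak, which were used as deposited to describe and rank peaks within a list. No column gives counts or read depth, and no count model was used. A genome background was solved from the fold enrichment and p of the peaks. It was 8.26, 4.90 and 2.23 fragments in FL and 8.10, 5.80 and 8.73 in LL. The shortest list, that of LL replicate 3, thus had the highest background. The part of depth in list length was not tested. The lowest −log10 q of the lists was 2.01 to 2.03, so each had been cut near the same q.

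Genes were the coding genes of the RefSeq table of GRCg7b, and members were found by symbol. A gene was open where a peak overlapped the 1 kb on either side of an end by at least 1 bp. Peaks of all libraries that overlapped by at least 1 bp were merged into regions, and a region away from all gene ends and within 50 kb of a coding gene was called distal. Its density is the number per 100 kb of window, divided by the mean over coding genes. Members and lists were chosen with earlier results of these data known, and the members' shares were given no test. The share of all coding genes was compared between the lines by an exact permutation test. The labels' replicate numbers were taken to pair the libraries, by a rule that same-numbered libraries correlate above 0.1. Over 17839 genes their deviations from the line means correlated at 0.460, 0.153 and 0.131. Only number 1 stood apart from the other pairings. FL replicate 2 correlated more with LL replicate 3 (0.187), and FL replicate 3 as much with LL replicate 2 (0.131). The correlations thus do not single out the pairs numbered 2 and 3. Nothing in the labels says what a number marks. Genes named are those with no open end, with 2 or more libraries between the lines, with extreme poorest ranks, with the most or no distal regions, with the widest or shared regions or with both ends open. Genes named from the other lists followed a like rule, and others are said to be chosen after their values were seen or illustrate a count. Promoter sequences were not used here.

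Alternatives were other windows, a −log10 q limit, equal list lengths, a width limit, the summit in place of the peak, a longer overlap and leaving out libraries. Calculations used Python 3.11.15, NumPy 2.4.6, pandas 2.3.3 and SciPy 1.17.1. The overlap step was tested on 2 simulated libraries, where it matched bedtools 2.31.1 in 100% of genes and found 100% of 200 planted genes. The birds are separate by the study's design, with 3 per line, and this number limits every comparison between the lines.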

Additional observations from a re-analysis of the deposited data

How the results depend on the processing

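The number of members open in all 6 libraries was 46, and 38 to 53 (52.8% to 73.6%) over the other peak and window settings, where coding genes gave 29.7% to 39.4%. Without 1 library it was 46 to 51. The number with 2 or more further FL libraries was 3 as reported. It was 5 at a −log10 q of at least 5 (against 6.17% of coding genes) and 5 by summit (6.45%). In a 500 bp window it was 5 (5.79%), and 1 when peaks under 178 bp were dropped (3.30%). In favour of LL the reported number was 0. It was 1 of 72 at equal list lengths (MRPL49, against 1.52% of coding genes) and 1 of 72 under the width limit (MRPS12, against 2.16%). Leaving out 1 library makes the lines unequal. The counts then ran from 0 to 15 for FL (15 of 72 without LL replicate 1, where 18.9% of coding genes did so). For LL they ran from 0 to 2 (2 of 72 without FL replicate 1, where 4.82% of coding genes did so). Genes open in all FL and no LL libraries numbered 0 to 2, and in the reverse case 0 to 0. The coding share given above for such genes is for all 6 libraries and is no background for these counts, so nothing is read from them. With both replicates numbered 1 left out, an alternative added after the data were examined, 3 members were open in both remaining FL and no LL libraries, against 5.45% of coding genes. The members' mean share in FL was 80.6% at equal list lengths, and without 1 library it was between 84.0% and 89.6% for FL and between 72.9% and 84.0% for LL. The distal density ratio was 0.922 in FL and 0.925 in LL with a 2 kb limit at gene ends, 0.889 and 0.878 within 25 kb, and 1.11 and 1.08 against coding genes with as many neighbours as the median member or more, and without 1 library the ratio lay between 0.944 and 1.07 for FL and between 0.971 and 1.06 for LL. The cause was not tested.

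Without 1 library, the difference of all coding genes between the lines ran from -0.216 (without LL replicate 3) to 15.2 percentage points (without LL replicate 1, exact permutation p = 0.1). It was 0.811 points (exact permutation p = 0.9) when peaks under 178 bp were dropped. With the replicate block it was 6.09 points with p = 0.5 in an exact permutation of signs within pairs, whose smallest value is 0.25. With or without the block the test cannot fall below 0.05 with these libraries, so the block could change no call. An alternative limited to annotated start sites was not run, because the gene table has no strand. List length and the narrowest peak, which differ between libraries, limit every statement on a missing peak.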
